A study of Rattus norvegicus with 6 samples.

Results

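The mitochondrial solute carrier family, SLC25, was examined in INS-1 cells that overexpressed menin carrying S487D or S487A. Its members were taken by gene name, as the rows of the deposited expression table named Slc25a followed by a number. There were 47 such rows of 35362. The naming rule uses no measured value, but the family was chosen with earlier results of these data known. INS-1 cells come from a rat insulinoma, release insulin and serve as a stand-in for pancreatic beta cells. Cells of both groups were transduced with a retrovirus carrying Flag-tagged menin, a nuclear scaffold protein for histone methyltransferases. In S487D the serine at that position is replaced by aspartate, an acidic residue often used to imitate phosphoserine, and in S487A by alanine, which cannot be phosphorylated. Messenger RNA was sequenced from 3 libraries of each group, with 9444801 to 10253573 reads assigned to genes in S487D and 10037113 to 10867549 in S487A. Neither wild-type menin nor untransduced cells were analysed here, so each direction is S487D relative to S487A, and a mutant cannot be told apart from the transduced population that carries it.

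SLC25 proteins sit mostly in the inner mitochondrial membrane and carry metabolites, nucleotides, cofactors and ions that cannot cross it alone. They exchange ADP for ATP, bring in phosphate, and move citrate, malate, aspartate and glutamate between matrix and cytosol. In beta cells, glucose metabolism is read out through mitochondrial ATP and through metabolites exported to the cytosol, and both steps pass through these carriers.

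Levels are given as RPKM, reads scaled for gene length and library depth, so that levels of different genes can be set against each other. Changes are log2 differences of log2(RPKM + 1), S487D minus S487A, a scale that understates changes of low genes. They were tested with limma over all genes and called at a Benjamini-Hochberg adjusted p under 0.05. Errors of means are SDs over n = 3 libraries. Whether the libraries of a group stem from independent cultures is not given in the labels, and the p-values rest on library-to-library spread, which may be technical. In these bulk samples fewer cells of a type and less RNA per cell cannot be told apart. Men1, the menin gene, was read at 113, 103 and 119 RPKM in S487D against 71.2, 76.7 and 75.0 RPKM in S487A (two-sided exact permutation p = 0.1, the smallest that 3 libraries against 3 allow; limma adjusted p = 2.89e-05), and the construct's reads cannot be told apart from those of the rat gene. All 10 beta cell line markers examined were above 1 RPKM in each library, and their summed level, mostly Ins1, was 21010 to 22160 RPKM in S487D and 8800 to 9417 RPKM in S487A; its part in the results was not tested. Markers of fibroblasts, immune, endothelial and acinar cells were at most 0.996 RPKM (Cd68), and the leukocyte gene Ptprc and all 5 acinar markers were listed at 0. Ins1, the main insulin gene of the line, averaged 16700 ± 551 RPKM in S487D and 4683 ± 292 RPKM in S487A. Ribosomal RNA took 2.15 to 4.50% of reads in S487D and 0.929 to 2.49% in S487A, and its part in the results below was not tested.

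Of the 47 genes, 33 were tested, and each of these was at or above 1 RPKM in all 6 libraries. In S487D, 9 rose and 12 fell, and 12 did not pass the threshold. Over all 12527 genes tested, 44.4% were called, 20.1% higher and 24.3% lower. The share called among SLC25 genes was 63.6%. Detection went with level: 50.6% of all tested genes with a mean of at least 10 RPKM were called and 37.2% of those below it, against 13 of 19 and 8 of 14 SLC25 genes. The groups did not overlap in 23 of the 33 genes, 10 higher and 13 lower in S487D, and in 54.6% of all genes tested, 25.0% higher and 29.5% lower. The median log2 change was -0.05 for the family and -0.01 for all genes. Changes were small: of the 21 called genes, 1 moved by 1.5-fold or more, while 18.6% of all called genes did. After centring each library on its median, 10 SLC25 genes rose and 7 fell, so that 58.8% of calls were upward in place of 42.9%. Over all genes that share was 58.9% after centring, 55.4% after quantile normalization and 45.3% with deposited values; for SLC25 genes it was 50% after quantile normalization. Leaving out S487D replicate 1 reduced the 9 rises to 5.

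**Figure D1:**
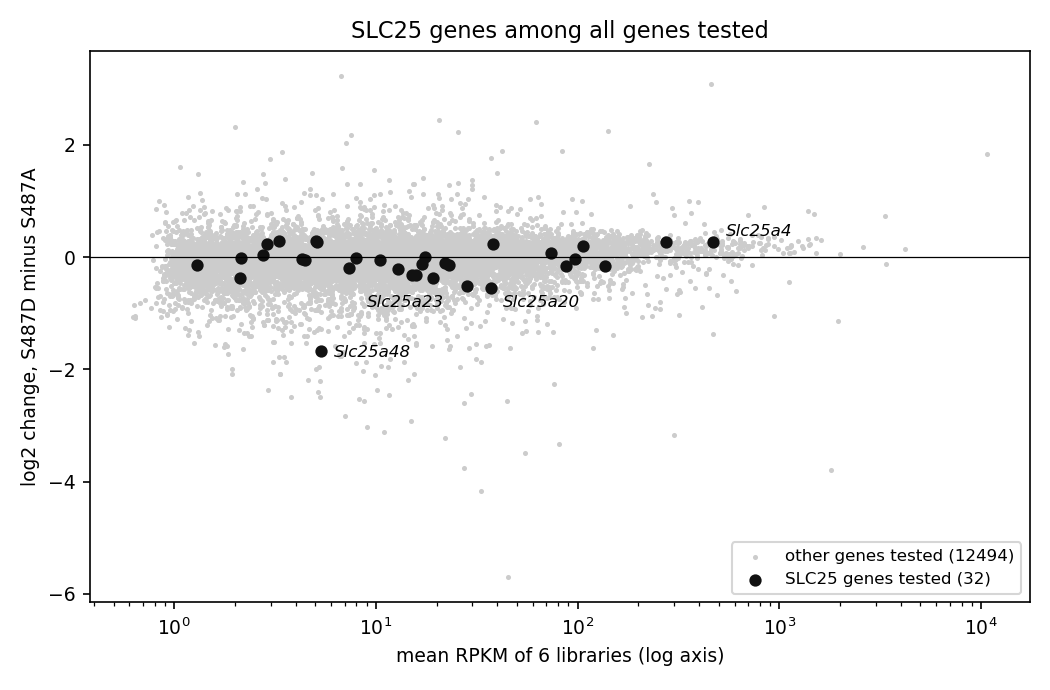
Mean RPKM of the 6 libraries (log axis) against the log2 change, S487D minus S487A, for 32 SLC25 genes (black) and the other genes tested (grey). Apart from Slc25a48 at -1.67, the SLC25 genes lie between -0.56 and 0.28.

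Levels of the 47 rows spanned from 0 to 523 RPKM. Among them Slc25a4, an ADP/ATP carrier, stood first, ahead of the phosphate carrier Slc25a3 and the dicarboxylate carrier Slc25a10 in all 6 libraries. Slc25a5, another ADP/ATP carrier, followed and exceeded Slc25a39 in 5 of 6 libraries. Lower in the order many neighbours changed places between libraries, such as Slc25a28 and Slc25a20, each ahead in 3 of 6. Together the 47 rows took 0.266 to 0.275% of assigned reads in S487D and 0.260 to 0.270% in S487A. Their RPKM summed to 1628, 1577 and 1613 in S487D against 1503, 1492 and 1559 in S487A, and the groups did not overlap. The sum of Slc25a3, Slc25a4 and Slc25a5 was 941, 906 and 928 RPKM in S487D and 760, 748 and 805 RPKM in S487A. Without these carriers the rest of the 47 rows summed to 688, 671 and 685 RPKM in S487D and 743, 744 and 754 RPKM in S487A. These 3 carriers were set apart with their rise known, so the lower remainder in S487D partly follows from that choice and is given as a description. The total of the 47 rows stayed higher in S487D without overlap after median centring, and again when the most read genes were removed. It leaves out Ucp2, a family protein named outside the rule, so it does not stand for the whole family. Ucp2 had 697, 675 and 705 RPKM in S487D and 720, 785 and 788 RPKM in S487A.

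**Figure D2:**
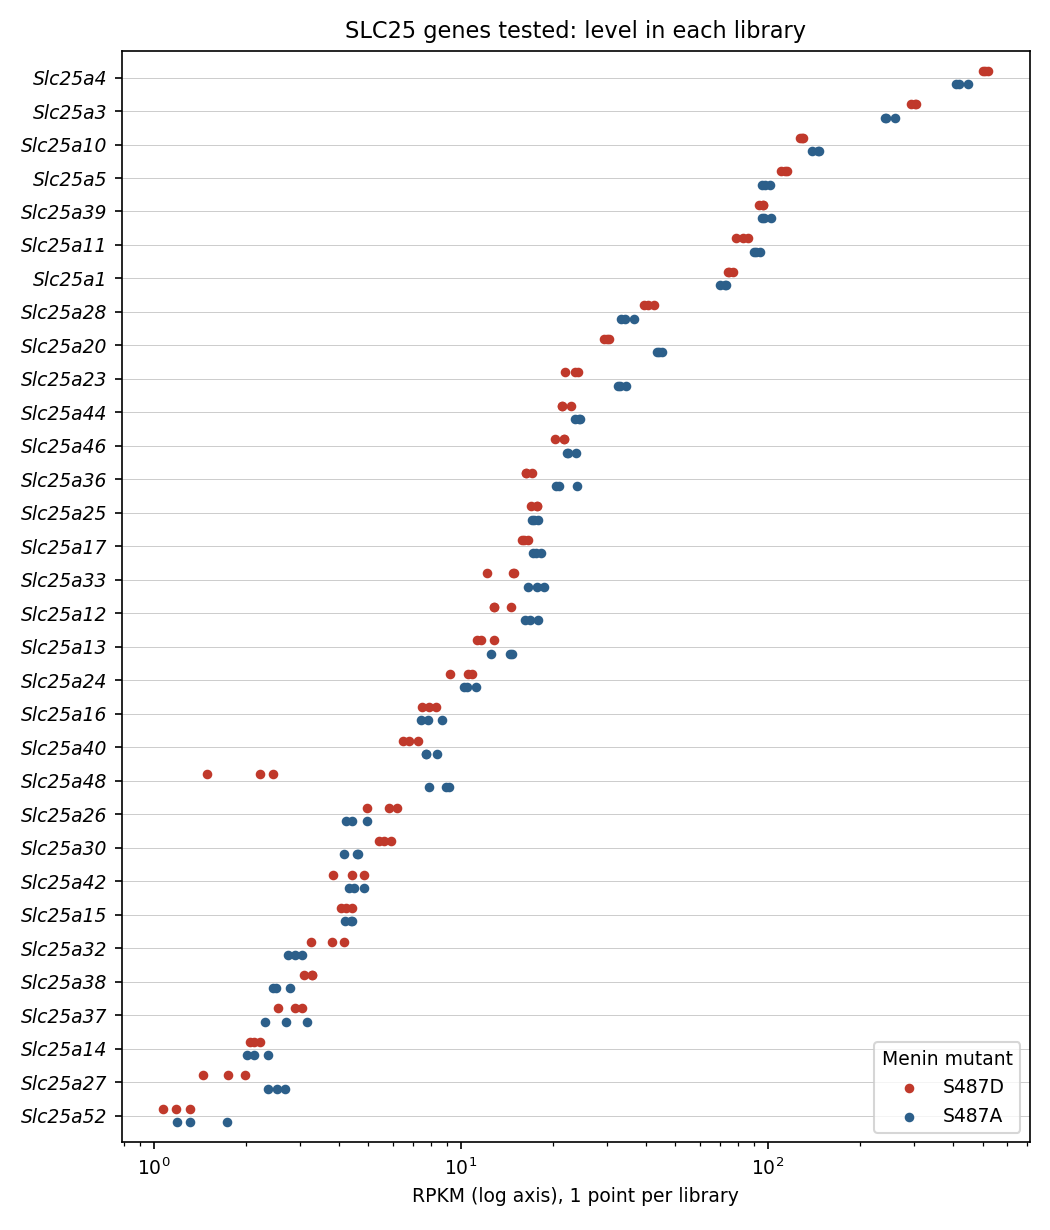
RPKM (log axis) of 32 SLC25 genes tested, ordered by mean level, with 1 point per library for S487D (red) and S487A (blue). The order runs from Slc25a4, at 503 to 523 RPKM in S487D and 409 to 449 RPKM in S487A, down to Slc25a52, at 1.07 to 1.31 RPKM in S487D and 1.19 to 1.73 RPKM in S487A.

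Of 8 carriers of adenine nucleotides and phosphate 6 were tested, of which 3 rose, 1 fell and 2 did not pass the threshold. The share called was 66.7%, against 44.4% of all genes tested, and the median log2 change was 0.10. Slc25a4, which exchanges cytosolic ADP for matrix ATP, had 523, 503 and 510 RPKM in S487D against 418, 409 and 449 RPKM in S487A. The lowest S487D library was above the highest S487A library, and the log2 change was 0.27 (SE 0.044, limma adjusted p = 9.65e-04). Slc25a3, which brings in the phosphate used to make ATP, had 304, 293 and 302 RPKM in S487D against 241, 242 and 260 RPKM in S487A. Here too the groups were apart (log2 change 0.28, SE 0.042, adjusted p = 6.05e-04). Slc25a5, an ADP/ATP carrier found in many dividing tissues, had 113, 110 and 116 RPKM in S487D and 101, 97.9 and 95.9 RPKM in S487A (log2 change 0.20, SE 0.040, adjusted p = 0.00307). Each of these calls held in all 16 alternative settings. Slc25a31, an ADP/ATP carrier known from male germ cells, was listed at 0 in every library. The row named Slc25a6, an ADP/ATP carrier in humans, reached at most 0.256 RPKM. RefSeq's rat gene table (GRCr8) lists 9 pseudogenes of Slc25a5, 2 of Slc25a3 and 1 of Slc25a4, and how the authors' counting treated reads shared with such copies is not given in the sources used here, which leaves the values of each of these genes uncertain.

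In rn6, Slc25a4 lies at chr16:49266903-49270698 on the plus strand and Slc25a3 at chr7:31816601-31824064 on the minus strand. The 250 bases before their RefSeq starts are shown because they are the members with the highest levels, and both rose. They lie at chr16:52805271-52805520 (plus strand) and chr7:27506628-27506877 (minus strand) of GRCr8, written 5′ to 3′, with motif matches in capitals.
Slc25a4: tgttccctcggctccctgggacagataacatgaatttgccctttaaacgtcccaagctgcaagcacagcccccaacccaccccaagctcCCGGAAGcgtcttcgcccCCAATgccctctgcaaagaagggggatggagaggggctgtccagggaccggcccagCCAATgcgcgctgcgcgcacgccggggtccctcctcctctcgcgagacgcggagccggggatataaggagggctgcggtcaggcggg
Slc25a3: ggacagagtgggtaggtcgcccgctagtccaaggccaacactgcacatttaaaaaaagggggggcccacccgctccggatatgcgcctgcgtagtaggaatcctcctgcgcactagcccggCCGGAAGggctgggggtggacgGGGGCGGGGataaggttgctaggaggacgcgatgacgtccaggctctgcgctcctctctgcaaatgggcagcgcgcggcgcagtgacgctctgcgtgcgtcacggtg
The search took 8 motifs on both strands, none of which contains another: NRF1 by name, ETS (CCGGAAG), CRE (TGACGTCA), E-box (CACGTG), ERR (TNAAGGTCA), CCAAT box (CCAAT), TATA box (TATAAA) and SP1 GC box (GGGGCGGGG). The capitals mark an ETS motif and 2 CCAAT boxes before Slc25a4, and an ETS motif and a GC box before Slc25a3. Of 33469 promoters in the RefSeq table, 7.27% held the ETS motif, 34.0% a CCAAT box and 9.0% the GC box. Among 39 SLC25 genes with a promoter there, 6 (15.4%) held the ETS motif, 21 (53.8%) a CCAAT box and 5 (12.8%) the GC box. NRF1 and ERR motifs were found in 0 of the 39, and in 3.75% and 1.04% of all promoters. CRE was in 2 (5.13%) of the 39 and 1.59% of all, the E-box in 3 (7.69%) and 5.59%, and the TATA box in 2 (5.13%) and 12.9%. SLC25 promoters had a median GC content of 57.2%, against 51.2% for all. The sets are unlike: each SLC25 gene counted once, while the others were not reduced to 1 per gene or to genes tested here. A match describes letters only and shows no bound factor.

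The calcium-regulated carriers of the same list held its 1 fall. Slc25a23, which swaps ATP-magnesium for phosphate, fell to 24.1, 21.8 and 23.5 RPKM in S487D, against 32.9, 34.6 and 32.6 RPKM in S487A (log2 change -0.51, SE 0.051, limma adjusted p = 4.26e-05). It lies at chr9:9988057-10001962 (rn6). Its relatives did not pass the threshold: Slc25a24 had 10.9, 9.21 and 10.5 RPKM in S487D and 11.2, 10.2 and 10.4 RPKM in S487A (log2 change -0.06, adjusted p = 0.542). Slc25a25 had 17.7, 17.7 and 17.0 RPKM in S487D and 17.3, 17.8 and 17.0 RPKM in S487A (log2 change 0.00, adjusted p = 0.965). As a share of the summed RPKM of these 3 genes, Slc25a23 made up 45.8, 44.8 and 46.1% in S487D and 53.5, 55.2 and 54.2% in S487A. Slc25a41, a relative without the calcium-binding part, was at most 0.0588 RPKM.

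**Figure D3:**
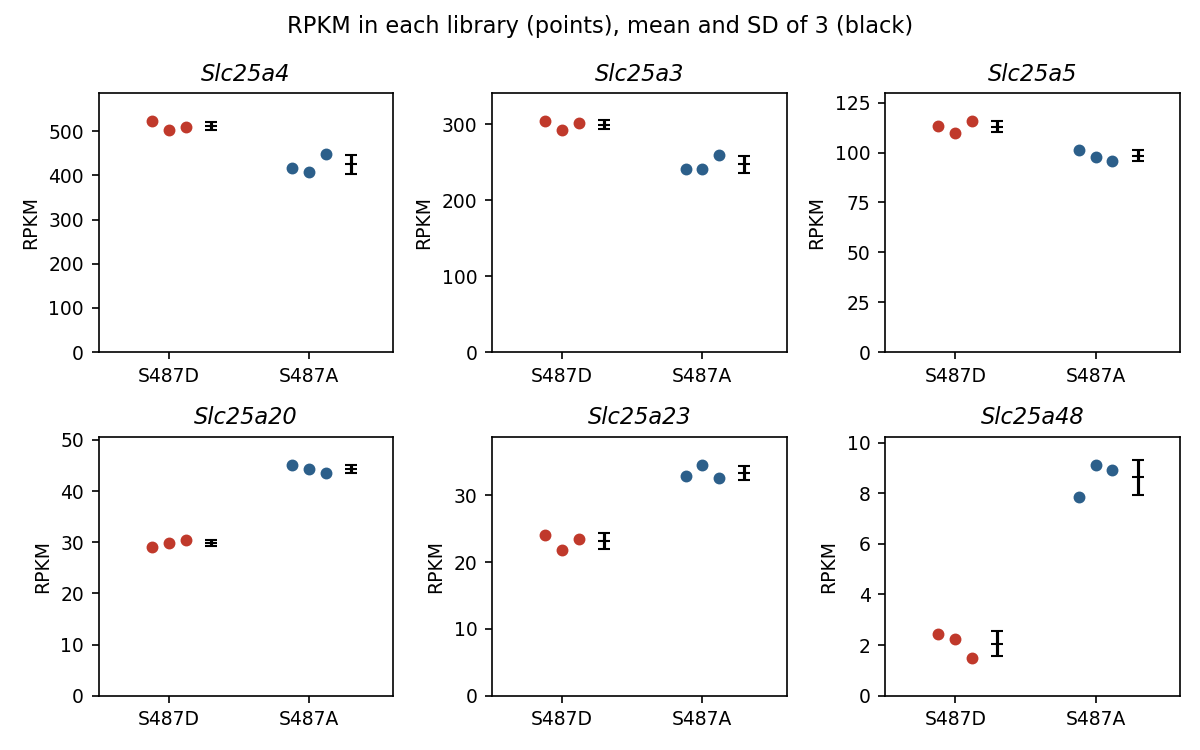
RPKM of 6 SLC25 genes in each library (points), with the mean and SD of 3 libraries in black, S487D left of S487A. Slc25a4, Slc25a3 and Slc25a5 were higher in all S487D libraries and Slc25a20, Slc25a23 and Slc25a48 lower.

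The largest change of the family was in Slc25a48, a carrier reported in human cells to bring choline into mitochondria. It fell to 2.45, 2.22 and 1.49 RPKM in S487D, against 7.85, 9.13 and 8.92 RPKM in S487A. The groups were far apart, with a log2 change of -1.67 on log2(RPKM + 1) (SE 0.12, limma adjusted p = 4.70e-06) and of -2.08 with voom on recovered reads, which adds no constant of 1 RPKM. The 6 libraries together held 842 reads of it, and it was called in all 16 alternatives. It lies at chr17:8568239-8608213 (rn6, minus strand), and the 20 nearest tested genes had a median log2 change of 0.07, with 2 higher and 6 lower.

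Slc25a20, which carries acylcarnitines into the matrix for fatty acid oxidation, fell next furthest. It had 29.1, 29.9 and 30.4 RPKM in S487D against 45.2, 44.3 and 43.6 RPKM in S487A. No library of either group came near the other group (log2 change -0.56, SE 0.041, limma adjusted p = 5.46e-06), and all 16 alternatives called it. It lies at chr8:117455308-117476762 (rn6, plus strand), where the 20 nearest tested genes had a median log2 change of 0.06. The carnitine palmitoyltransferases that act before and after it also fell, Cpt2 to 81.4 ± 2.4 RPKM in S487D against 127 ± 0.90 RPKM in S487A (limma adjusted p = 1.54e-06), and Cpt1a to 11.7 ± 0.12 RPKM in S487D against 16.1 ± 0.82 RPKM in S487A (adjusted p = 1.86e-04). Cpt1a was chosen after its values were seen.

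The stretches before these genes are shown since they showed the largest falls, at chr17:8172377-8172626 (minus strand) for Slc25a48 and chr8:118243323-118243572 (plus strand) for Slc25a20, both GRCr8.
Slc25a48: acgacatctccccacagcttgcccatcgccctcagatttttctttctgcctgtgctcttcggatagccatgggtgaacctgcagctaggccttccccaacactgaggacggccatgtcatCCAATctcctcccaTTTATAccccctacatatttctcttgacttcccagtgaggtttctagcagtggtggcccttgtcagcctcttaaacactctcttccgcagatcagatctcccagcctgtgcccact
Slc25a20: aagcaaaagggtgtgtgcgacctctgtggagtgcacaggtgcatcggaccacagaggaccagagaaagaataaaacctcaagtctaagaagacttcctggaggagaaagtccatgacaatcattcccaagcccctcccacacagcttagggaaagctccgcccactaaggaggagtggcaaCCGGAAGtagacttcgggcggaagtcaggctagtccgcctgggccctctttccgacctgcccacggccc
The capitals mark a CCAAT box and a TATA box before Slc25a48 and an ETS motif before Slc25a20. A promoter was at hand for 5 of the 9 SLC25 genes that rose and 11 of the 12 that fell. By direction, the ETS motif stood in 3 of 5 promoters of SLC25 genes that rose (Slc25a3, Slc25a4 and Slc25a38), in 1 of 11 of those that fell (Slc25a20) and in 1 of 9 of those tested but not called. In the same order, the CCAAT box stood in 2 of 5, 8 of 11 and 5 of 9, and the GC box in 2 of 5, 2 of 11 and 1 of 9. Each other motif stood in at most 1 promoter of each set. These are counts in few promoters, chosen with the directions known, and were not tested.

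Carriers of dicarboxylates and keto acids fell slightly or did not pass the threshold. Slc25a10, which swaps malate or succinate for phosphate, had 127, 129 and 130 RPKM in S487D against 139, 145 and 147 RPKM in S487A (log2 change -0.16, SE 0.037, limma adjusted p = 0.00681). Slc25a11, which exchanges oxoglutarate for malate in the malate-aspartate shuttle, had 83.1, 78.8 and 86.3 RPKM in S487D and 89.8, 94.5 and 91.6 RPKM in S487A (log2 change -0.15, adjusted p = 0.0201). In neither gene did the groups overlap. Median centring ended both calls, with an adjusted p = 0.0605 for Slc25a10 (5.47e-04 to 0.0605 over 16 alternatives) and 0.109 for Slc25a11 (0.00919 to 0.109). The call of Slc25a11 was also lost without S487D replicate 1 (adjusted p = 0.0523), S487D replicate 2 (0.0731) or S487A replicate 2 (0.0691), and without the intensity trend (0.0544). Slc25a1, the citrate carrier, was read at 74.7, 74.2 and 77.1 RPKM in S487D and 69.9, 72.8 and 72.4 RPKM in S487A (log2 change 0.07, adjusted p = 0.165). It passed the threshold upward after median centring (0.0249, within 0.0249 to 0.443). Slc25a21, an oxodicarboxylate carrier, was at most 0.331 RPKM.

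Of the 5 amino acid carriers tested, 3 fell, 1 rose and 1 did not pass, while 44.4% of all genes tested were called. Slc25a12 (aralar) and Slc25a13 (citrin), calcium-responsive carriers that export aspartate for glutamate, were at similar levels. Slc25a12 had 14.5, 12.8 and 12.9 RPKM in S487D against 17.8, 16.7 and 16.2 RPKM in S487A, without overlap (log2 change -0.32, SE 0.063, limma adjusted p = 0.00291). Slc25a13 had 12.8, 11.6 and 11.3 RPKM in S487D and 14.4, 12.6 and 14.6 RPKM in S487A. The Slc25a13 groups overlapped, and the log2 change of -0.20 was near the threshold (adjusted p = 0.0427). That call was lost in 9 of 16 alternatives (adjusted p 0.0141 to 0.134), among them those without S487D replicate 2 (0.107), S487D replicate 3 (0.125), S487A replicate 1 (0.120) and S487A replicate 3 (0.134). The span of its row, introns included, overlaps other genes, Col1a2 among them. The libraries do not mark strand, so reads from any shared exons could not be told apart, and overlap of exons was not examined. No fibroblast marker, Col1a2 included, exceeded 0.0855 RPKM, and the part of the other overlapping genes was not tested. Slc25a12 made up 53.2, 52.3 and 53.2% of the summed RPKM of both genes in S487D and 55.2, 57.1 and 52.6% in S487A, so the shares overlapped.

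Slc25a44, a carrier of branched-chain amino acids, averaged 21.9 ± 0.81 RPKM in S487D and 24.1 ± 0.46 RPKM in S487A (log2 change -0.14, limma adjusted p = 0.0393). Its call was lost without any single library other than S487D replicate 1 (0.0580 to 0.113 without S487D replicate 2 or 3 or S487A replicate 1, 2 or 3), and in 4 other alternatives, up to 0.167 after median centring, within 0.0261 to 0.167 over 16 alternatives. Slc25a38, the glycine carrier that serves haem synthesis, averaged 3.21 ± 0.11 RPKM in S487D and 2.58 ± 0.17 RPKM in S487A (log2 change 0.24, adjusted p = 0.0332). The call of Slc25a38 was lost without S487D replicate 1, 2 or 3 or S487A replicate 1 or 2 (adjusted p 0.0501 to 0.0906), with no filter (0.0794) and with the replicate block (0.0512), within 0.00464 to 0.0906 over 15 alternatives. Slc25a15, the ornithine carrier of the urea cycle, averaged 4.23 ± 0.17 RPKM in S487D and 4.34 ± 0.12 RPKM in S487A (adjusted p = 0.767). The glutamate carrier row Slc25a22 was listed at 0 in every library and that of its relative Slc25a18 at no more than 0.0534 RPKM. A row at 0 need not mean an absent mRNA, since Hprt1, which cells in general express, was also listed at 0 throughout. Slc25a2, a further ornithine carrier, had 0.569 to 1.32 RPKM over the 6 libraries, just under the filter, and Slc25a29, a carrier of basic amino acids, at most 0.311 RPKM.

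**Figure D4:**
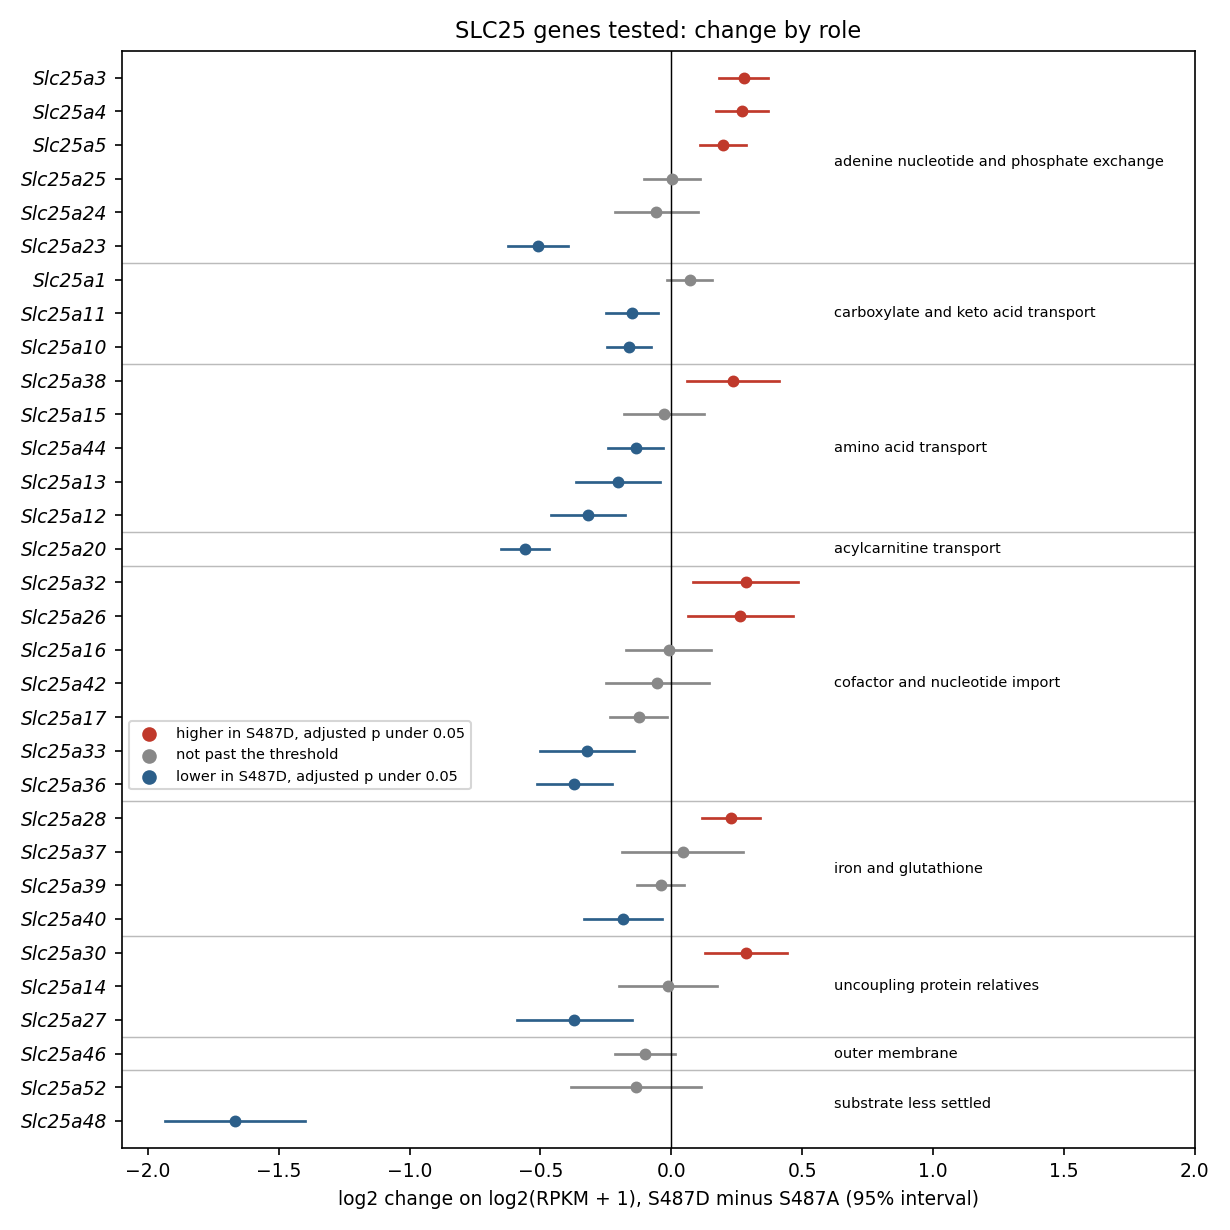
Log2 change on log2(RPKM + 1), S487D minus S487A, with its 95% interval from limma for 32 SLC25 genes tested, grouped by role. Red genes rose, blue genes fell at an adjusted p under 0.05 and grey genes did not pass; Slc25a48 at -1.67 and Slc25a20 at -0.56 lie furthest down, and Slc25a3 and Slc25a4 are near 0.28 and 0.27.

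Carriers of cofactors and nucleotides moved both ways, with 3 higher and 2 lower of 8 tested (62.5% called, against 44.4% of all genes tested). Slc25a32, a carrier of folate and flavin nucleotide, had 3.82, 4.15 and 3.26 RPKM in S487D and 2.88, 3.04 and 2.73 RPKM in S487A (log2 change 0.28, limma adjusted p = 0.0277). Slc25a26, which imports S-adenosylmethionine, had 5.82, 6.17 and 4.94 RPKM in S487D and 4.43, 4.21 and 4.93 RPKM in S487A (log2 change 0.26, adjusted p = 0.0359). These values were apart between the groups, in Slc25a26 by a narrow margin. The Slc25a32 call was lost without S487D replicate 1 (0.0772), S487D replicate 2 (0.0963), S487A replicate 1 (0.0612) or S487A replicate 3 (0.0826) and with no filter (0.0787), within 0.00871 to 0.0963. The Slc25a26 call was lost without S487D replicate 1 (0.101), S487D replicate 2 (0.121), S487A replicate 1 (0.0852) or S487A replicate 2 (0.109), with no filter (0.0945) and with the replicate block (0.0588), within 0.00985 to 0.121.

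The pyrimidine nucleotide carriers Slc25a36 and Slc25a33, which supply mitochondrial DNA and RNA synthesis, both fell. Slc25a36 had 17.0, 16.3 and 16.3 RPKM in S487D against 23.9, 20.3 and 20.9 RPKM in S487A (log2 change -0.37, SE 0.064, limma adjusted p = 0.00126). Slc25a33 had 12.2, 14.9 and 14.8 RPKM in S487D against 18.7, 16.5 and 17.8 RPKM in S487A (log2 change -0.32, SE 0.080, adjusted p = 0.00916). Neither gene's groups overlapped, and both calls held in all 16 alternatives. Slc25a33 made up 41.7, 47.7 and 47.7% of their summed RPKM in S487D and 43.9, 44.9 and 46.0% in S487A. Slc25a16 and Slc25a42, linked to coenzyme A import, did not pass (adjusted p = 0.921 and 0.654), nor did the peroxisomal carrier Slc25a17, at 16.1 ± 0.37 RPKM in S487D and 17.7 ± 0.55 RPKM in S487A (adjusted p = 0.0620), whose groups did not overlap.

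Among carriers tied to iron and glutathione, Slc25a28 rose and Slc25a40 fell. Slc25a28 (mitoferrin-2), which brings iron into mitochondria outside the red cell lineage, had 42.5, 40.6 and 39.6 RPKM in S487D against 34.3, 33.3 and 36.6 RPKM in S487A (log2 change 0.23, SE 0.050, limma adjusted p = 0.00473, called in all 16 alternatives). Slc25a37 (mitoferrin-1), which serves developing red cells, had 3.04, 2.54 and 2.88 RPKM in S487D and 3.16, 2.68 and 2.30 RPKM in S487A (adjusted p = 0.758). Slc25a28 made up 93.3, 94.1 and 93.2% of the pair's RPKM in S487D and 91.6, 92.5 and 94.1% in S487A. The glutathione carrier Slc25a39 had 96.6, 93.5 and 96.1 RPKM in S487D and 95.4, 96.8 and 102 RPKM in S487A (log2 change -0.04, adjusted p = 0.453). Slc25a39 has 8 pseudogenes in the RefSeq table, which makes its value uncertain. Its relative Slc25a40 had 6.49, 7.27 and 6.76 RPKM in S487D against 7.69, 7.67 and 8.37 RPKM in S487A (log2 change -0.19, adjusted p = 0.0457). The Slc25a40 call was the least stable, lost in 11 of 16 alternatives (0.0367 to 0.291), including those without S487D replicate 1 (0.145) or 3 (0.103) or S487A replicate 1 (0.0622), 2 (0.0673) or 3 (0.151). Slc25a39 made up 93.7, 92.8 and 93.4% of the pair in S487D and 92.5, 92.7 and 92.4% in S487A.

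**Figure D5:**
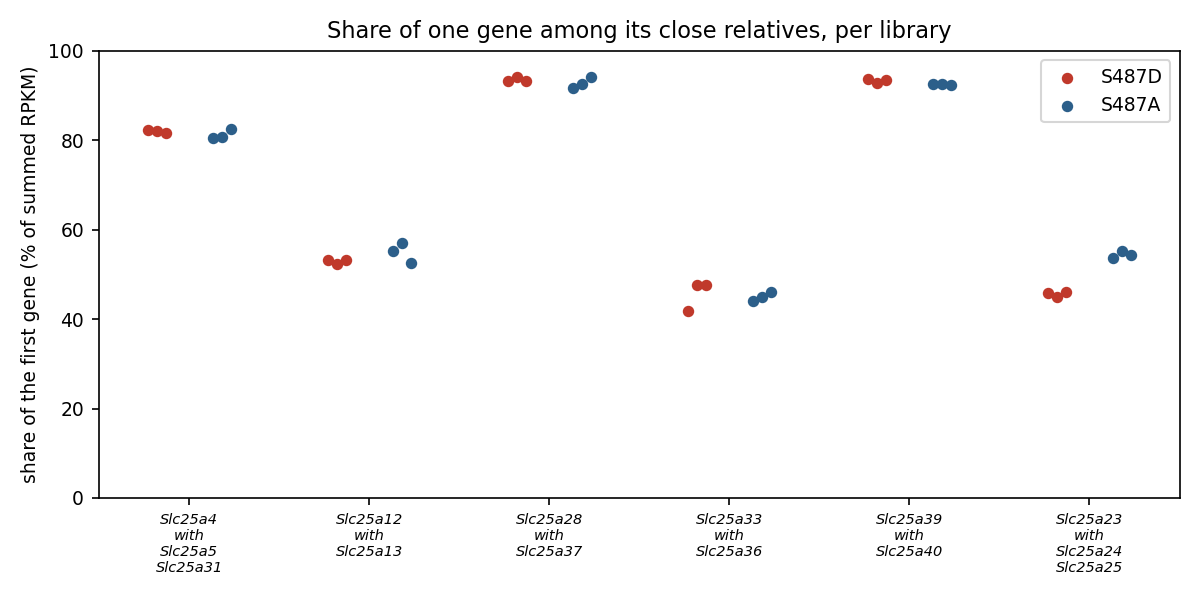
Share of 1 gene in the summed RPKM of its close relatives, in percent, 1 point per library with S487D (red) left of S487A (blue). Slc25a23 made up 44.8 to 46.1% in S487D and 53.5 to 55.2% in S487A; the other shares overlap between groups except that of Slc25a39, at 92.8 to 93.7% in S487D and 92.4 to 92.7% in S487A.

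Relatives of the uncoupling proteins differed from each other. Slc25a30, a carrier first described in kidney, had 5.40, 5.93 and 5.63 RPKM in S487D against 4.58, 4.64 and 4.17 RPKM in S487A (log2 change 0.28, SE 0.070, limma adjusted p = 0.00891). Slc25a27 (UCP4), known from neurons, had 1.75, 1.44 and 1.98 RPKM in S487D against 2.35, 2.51 and 2.68 RPKM in S487A (log2 change -0.37, SE 0.098, adjusted p = 0.0124), and the groups were apart. Quantile normalization ended that call (0.0551, within 5.10e-04 to 0.0551 over 15 alternatives). Slc25a14 (UCP5) averaged 2.13 ± 0.082 RPKM in S487D and 2.16 ± 0.18 RPKM in S487A (adjusted p = 0.916). Slc25a46, an outer membrane member linked to mitochondrial shape, averaged 21.1 ± 0.83 RPKM in S487D and 22.8 ± 0.89 RPKM in S487A (adjusted p = 0.139). Slc25a52, a near copy of the NAD carrier in humans, averaged 1.19 ± 0.12 RPKM in S487D and 1.41 ± 0.29 RPKM in S487A (adjusted p = 0.356). Of the remaining untested genes, Slc25a35 reached 0.658 RPKM, Slc25a47 0.406 RPKM, Slc25a34 0.380 RPKM, Slc25a43 0.160 RPKM and Slc25a45 0.142 RPKM, and Slc25a54 was listed at 0. No untested gene of the family had more than 20 reads in a library. Mcart1, an older symbol of the NAD carrier Slc25a51, lies outside the naming rule and had 0.240 to 0.354 RPKM.

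Neighbouring genes were read beside each member, since whole regions can shift together. Slc25a16 lies at chr20:27283383-27308069 (rn6). Of the 20 tested genes nearest to it 13 fell and 0 rose, with a median log2 change of -0.47, while Slc25a16 itself had -0.01. For the other tested SLC25 genes the median of the 20 nearest genes lay between -0.16 and 0.15.

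Proteins of the same fold and family that carry other names, and genes that work with these carriers, also went both ways. Ucp2, the uncoupling protein of beta cells, was the highest of the 5 same-fold genes and stood above Slc25a4 in each library. It had 697, 675 and 705 RPKM in S487D against 720, 785 and 788 RPKM in S487A. Its log2 change was -0.14 (limma adjusted p = 0.0300), and the call was lost without S487D replicate 1 (0.0756), S487D replicate 2 (0.111), S487A replicate 2 (0.102) or S487A replicate 3 (0.0698), within 1.75e-04 to 0.181 over 16 alternatives. The 20 tested genes nearest to Ucp2 had a median log2 change of -0.17, with 2 higher and 6 lower, and the region's part was not tested. Mtch2, an outer membrane relative that inserts proteins, rose to 83.7 ± 3.9 RPKM in S487D against 73.5 ± 1.6 RPKM in S487A. Of 5 such genes 3 were tested, and 1 rose and 1 fell, where 44.4% of all genes tested were called.

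Of 11 tested genes of carrier import, 6 rose and 2 fell. The share called was 72.7%, against 44.4% of all genes tested, of which 20.1% were higher and 24.3% lower. Tomm40, the outer membrane pore, rose to 69.4 ± 2.9 RPKM in S487D against 53.0 ± 0.22 RPKM in S487A (limma adjusted p = 8.08e-05). The small chaperones Timm10 and Timm13 rose 1.23-fold and 1.24-fold, while Timm10b fell 1.47-fold. Timm22, the inner membrane insertase of carriers, fell to 19.3 ± 0.17 RPKM in S487D against 22.3 ± 1.0 RPKM in S487A. Rises numbered 3 without S487D replicate 1, and 3 without S487D replicate 2.

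Of 13 tested genes for other mitochondrial channels and carriers, 2 rose and 4 fell. The share called was 46.2%, near the 44.4% of all genes tested. Vdac1, the outer membrane channel, rose to 161 ± 6.9 RPKM in S487D against 122 ± 1.6 RPKM in S487A, and Letm1 rose 1.17-fold, whereas Vdac2 fell 1.15-fold (limma adjusted p = 5.80e-05, 0.00493 and 0.00227). The calcium uniporter gene Mcu fell 1.37-fold. The 20 tested genes nearest to Mcu had a median log2 change of -0.50, with 15 lower and 0 higher, and the region's part in its fall was not tested. Among 20 enzymes that work on the carried metabolites, 6 rose and 8 fell, so that 70% were called against 44.4% of all genes tested. The malate dehydrogenases Mdh1 and Mdh2 each rose 1.26-fold, and the citrate-cleaving enzyme Acly rose 1.21-fold, though not under quantile normalization (adjusted p = 0.279, within 4.34e-10 to 0.279 over 15 alternatives). Glud1, glutamate dehydrogenase, fell 1.37-fold and Gpd1, of the glycerophosphate shuttle, fell 1.71-fold. Of the 20 tested genes nearest to Gpd1, 19 fell and 0 rose (median log2 change -0.51), and the region's part in its fall was not tested.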

How the data were processed

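Sample titles gave each library its group and replicate number. Per the submitters' processing notes, the tools were bcl2fastq 2.17, cutadapt and TopHat2 2.0.13, and the build rn6 (Rnor_6.0); the sources used here give neither counter nor annotation. Per the labels' protocols a TruSeq RNA kit was used, which does not mark strand. The deposited table holds the authors' RPKM for 35362 gene rows, per the file headers. Multiplied by gene length, at least 99.97% of values came out as whole reads (tolerance 0.05 of a read), so depth could be recovered. In a 1 kb gene 3 reads equal 0.276 to 0.318 RPKM, a limit for counting error only.

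Genes reaching 1 RPKM in 3 or more libraries entered limma 3.58.1 (R 4.3.3): log2(RPKM + 1), intensity trend, group as sole term, two-sided, Benjamini-Hochberg over all genes. The design foresaw a count model only for raw counts, so RPKM was tested with limma. Within groups, no 2 libraries agreed to counting noise (chi-square over expectation 1.36 to 1.88, median over genes). The fit was also run on simulated reads in which only a small set of well-read genes changed. That setting differs from these data, so it does not vouch for the calls. Alternatives were pseudocounts of 0.1 and 0.01, median centring, quantile normalization, no filter or a filter at RPKM 5, no trend, a replicate block, voom on recovered reads, the 10 most read genes per library removed, and each library left out.

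Values per library are given for the 6 members with the highest level, the 6 largest called rises, the 6 largest called falls, and paralog pairs with a call; each related list gives up to 3 called genes per direction. Genes outside this rule are described likewise or as means. Some genes that the rule takes stand in the counts but are not reported here. The members and lists were chosen with earlier results of these data known. Promoters came from RefSeq (GRCr8), where all 47 symbols were found and 39 had a promoter. Tables used Python 3.11.15, numpy 2.4.6 and pandas 2.3.3.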

Additional observations from a re-analysis of the deposited data

How the results depend on the processing

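Of the 21 called SLC25 genes, 11 kept their call in each alternative that tested them, and 0 changed sign in the 16 alternatives. Rises numbered 5 with no filter, which tests 44 SLC25 genes, and 5 to 8 with a library left out; falls numbered 7 after median centring and 9 to 10 with a library left out. The family's median log2 change was -0.113 with a filter at RPKM 5 (24 genes tested), 0.0118 after quantile normalization, 0.00503 after median centring and -0.0818 to -0.0255 with a library left out. Over all genes it was 0.0330 after quantile normalization and 0.0439 after median centring. The cause of these shifts was not tested. Changes of the opposite sign arose in uncalled genes alone. After quantile normalization they were 0.106 (Slc25a14), 0.0703 (Slc25a15), 0.0751 (Slc25a16), 0.0118 (Slc25a24) and 0.0444 (Slc25a42). After median centring they were 0.0450 (Slc25a14), 0.0297 (Slc25a15), 0.0474 (Slc25a16), 3.33e-04 (Slc25a24), 0.0178 (Slc25a39) and 0.00503 (Slc25a42). Removing the most read genes gave 0.00397 (Slc25a14) and 0.0115 (Slc25a16). With a library left out the ranges were -0.0479 to 0.0311 (Slc25a14), -0.0550 to 0.0465 (Slc25a16), -0.0999 to 0.00797 (Slc25a24), -0.0112 to 0.0215 (Slc25a25), -0.0381 to 0.129 (Slc25a37) and -0.118 to 0.0213 (Slc25a42). Falls in proteins of the same fold (Ucp2) numbered 0 with no filter, median centring, no intensity trend or the replicate block, and 0 to 1 with a library left out. Rises in carrier import numbered 3 to 6 with a library left out, and rises among other channels and carriers 4 after median centring. With the replicate block 7 SLC25 genes rose and 10 fell. No pairing by replicate number was visible: same-numbered libraries had deviations correlated at 0.00354, -0.0598 and 0.00998. Of the S487D libraries, 0 of 3 correlated best with their own number. With so few libraries these values cannot decide whether a number marks a shared culture or day, which the labels do not give. The 14 untested genes had at most 20 reads in a library, too few for small changes to be detectable.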
